A study of Mus musculus with 5 samples.

Results

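Focal adhesion kinase, the Src-family kinases, Abl and the integrin-linked kinase carry signals from integrins at the sites where a cell holds its substrate. The genes of these kinases, of their inhibitor Csk and of the scaffold proteins that they bind were followed in mouse embryonic stem (ES) cells with and without C3G. The 10 genes Ptk2, Pxn, Src, Yes1, Fyn, Csk, Abl1, Ilk, Lims1 and Parva were chosen by name, for their known roles, out of 55147 gene symbols. The choice was made with earlier results of these data known. All 10 passed the filter on low expression that left 12518 genes to be tested. RNA was sequenced from 3 WT samples, which were unmodified E14Tg2a cells, and from 2 C3G KO samples, which were E14Tg2a cells with a targeting vector and a puromycin cassette in place of exons 2 to 4 of Rapgef1, the C3G gene. All 5 samples were grown on gelatin with serum and LIF and received no treatment. The C3G KO cells had earlier been nucleofected, selected with puromycin and picked as colonies, while WT were the parent cells, so selection and cloning differ together with genotype. The authors call the samples of each group independent. However, neither they nor the labels state the clone behind each C3G KO sample or whether independent means separate cultures. P-values thus rest only on the spread between these samples, pooled in part or wholly over genes.

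Integrins have no kinase activity of their own. When they bind the extracellular matrix, FAK is recruited and phosphorylates itself, which creates a docking site for Src, and the FAK and Src pair then phosphorylates paxillin and other adaptors. A separate complex of ILK, PINCH and parvin ties the cytoplasmic tail of β integrins to actin, and C3G, an exchange factor for the small GTPase Rap1, is itself brought to adhesions by Crk adaptors and is a known substrate of Src-family and Abl kinases.

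Expression was deposited as TPM, a unit that sets reads against transcript length and the total of the sample, so that levels of different genes can be compared. Values are listed below in the order of the sample numbers, WT 1 to 3 and then C3G KO 1 and 2. Small non-coding RNAs took 62.9%, 63.5% and 67.2% of the TPM in WT 1 to 3 and 77.8% and 69.6% in C3G KO 1 and 2. Since TPM sum to the same total in each sample, values are given as deposited and also scaled by the median of ratios, with size factors of 1.33, 1.22 and 1.10 for WT and 0.618 and 0.905 for C3G KO. Over the 12518 genes the median log2 fold change was -0.55 as deposited and 0.0052 when scaled. The part of the small RNAs in any result below was not tested, and read numbers were not used here, so the depth behind a value is unknown. Rapgef1 (ENSMUSG00000039844, chromosome 2 of GRCm38, 29619720 to 29740978) had deposited TPM of 11.56, 10.31 and 9.64 in WT against 3.92 and 5.55 in C3G KO. Scaled values were 8.67, 8.46 and 8.75 in WT and 6.35 and 6.14 in C3G KO. The sum covers transcripts of the undeleted exons too, and both C3G KO samples lay below all WT samples. Scaled Rapgef1 fell by 0.41 on the log2 scale (standard error 0.059, adjusted p = 0.00444), and by 1.02 (adjusted p = 0.000304) as deposited. With a correction for length and GC content Rapgef1 fell by 0.20 (adjusted p = 0.0449), and with the replicate number as a block besides, the call was lost (-0.19, adjusted p = 0.150), the highest of a range from 0.000278 over all alternatives.

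Of the 10 genes, 8 were lower and 0 higher in C3G KO after scaling at an adjusted p under 0.05 from limma, while Ptk2 and Lims1 did not pass. Over all tested genes, 16.6% were lower and 14.1% higher by this rule. The median log2 fold change of the 10 genes was -0.40, or -0.41 relative to all genes. With TPM as deposited, 9 of the 10 genes were lower and 0 higher, beside 56.8% lower and 1.45% higher of all genes, and their median was -1.01, or -0.46 relative to all genes. All p-values as deposited, also the very small ones below, use a spread pooled over genes and not the gene's own. In bulk RNA, fewer cells of a type and less RNA per cell cannot be told apart. With a sample left out, between 5 genes, without C3G KO 1, and 7 genes were lower after scaling. After scaling both C3G KO samples lay below all WT samples for 9 of the 10 genes and above them for 1, Lims1. The same was found for 29.3% and 29.5% of all tested genes. As deposited, both lay below all WT samples for all 10 genes, as for 75.7% of all genes, and for 1.49% of all genes both lay above.

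**Figure D1:**
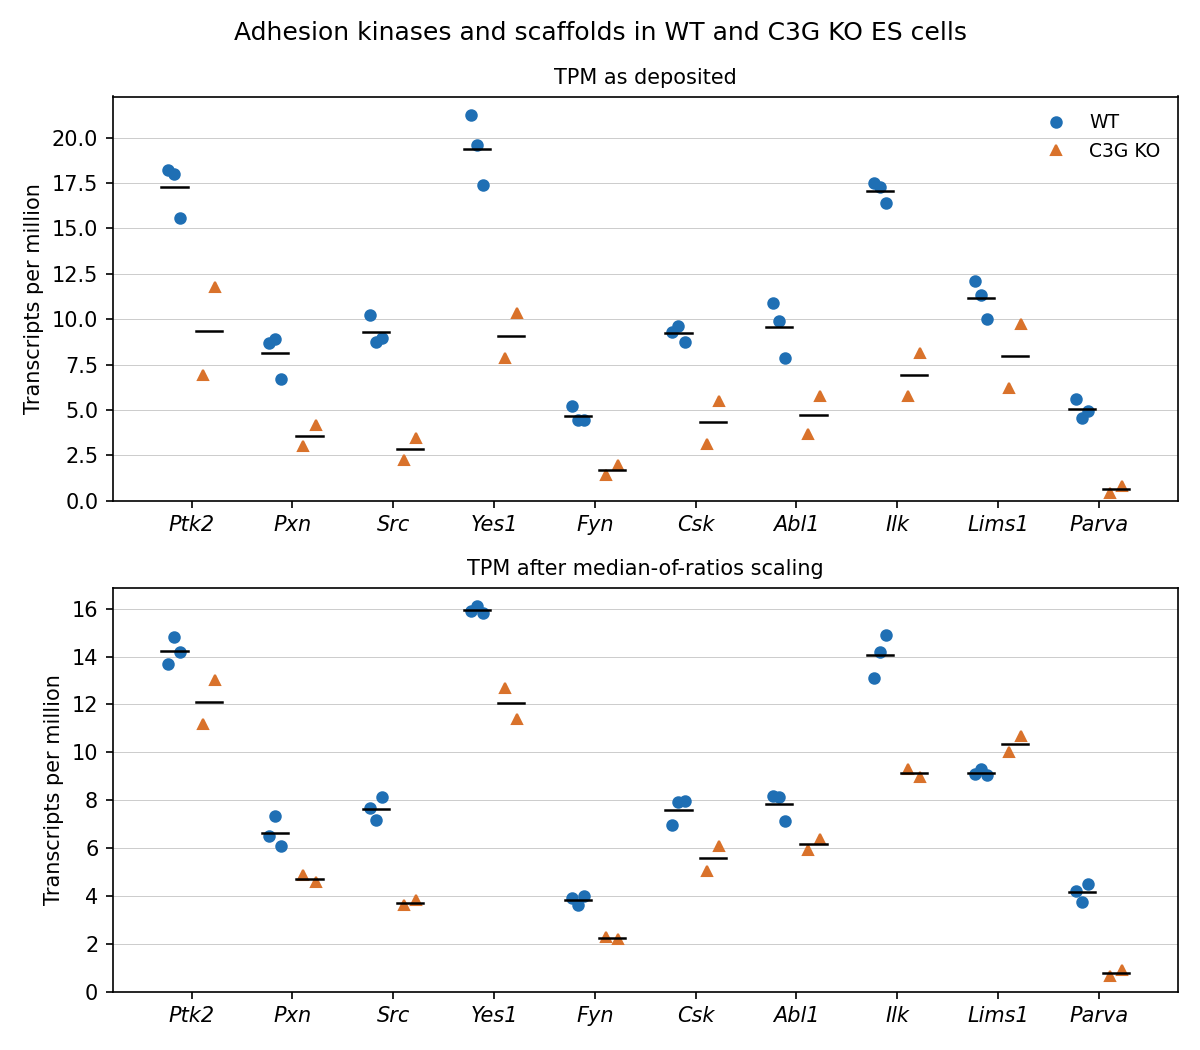
TPM of the 10 genes in each of 3 WT samples (circles) and 2 C3G KO samples (triangles), as deposited (top) and after median-of-ratios scaling (bottom), with group means as bars and both vertical axes starting at 0. As deposited, all C3G KO points lie below the WT points of the same gene, and after scaling those of Lims1 lie above.

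FAK and paxillin stand at the centre of a focal adhesion. Ptk2, the FAK gene (ENSMUSG00000022607, chromosome 15 of GRCm38, 73205102 to 73423280), had deposited TPM of 18.21, 18.01 and 15.60 in WT against 6.90 and 11.78 in C3G KO. After scaling these were 13.7, 14.8 and 14.2 in WT and 11.2 and 13 in C3G KO. The C3G KO samples were the lowest on both scales, but after scaling C3G KO 2 came within 1 TPM of WT 1. Scaled Ptk2 had a log2 change of -0.22 (standard error 0.083, adjusted p = 0.0944), which did not pass, while as deposited it was -0.86 (adjusted p = 0.00367), or -0.31 relative to all genes. Without C3G KO 1 the change was -0.12 after scaling and -0.51 as deposited. Without C3G KO 2 it was -0.32 after scaling and -1.21 as deposited. The call as deposited was lost without WT 1 (adjusted p = 0.0690), WT 2 (0.0937) or C3G KO 1 (0.0512), in a range from 0.00158 with a sample left out. Ptk2 passed also when the TPM of protein-coding genes were rescaled to a fixed sum (-0.42, adjusted p = 0.00486), where 38.9% of the genes tested were lower and 6.55% higher. Pxn encodes paxillin, the LIM-domain scaffold that FAK and Src phosphorylate (ENSMUSG00000029528, chromosome 5, 115506676 to 115555987). It had deposited TPM of 8.69, 8.93 and 6.72 in WT against 3.0 and 4.15 in C3G KO. Scaled values were 6.52, 7.33 and 6.10 in WT and 4.86 and 4.59 in C3G KO. WT 3 was the lowest WT sample for Pxn, and the groups did not overlap on either scale. Scaled Pxn fell by 0.42 on the log2 scale (standard error 0.085, adjusted p = 0.0152). The call was lost without C3G KO 1 (adjusted p = 0.0518), without C3G KO 2 (0.0770) and after correction for GC content and transcript length (0.0873). Over all alternatives the adjusted p of Pxn ran from 0.000269 to 0.0892.

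Src, Yes and Fyn are the Src-family kinases found in most cell types, and Yes has been linked to the self-renewal of mouse ES cells. Src (ENSMUSG00000027646, chromosome 2, 157418444 to 157471862) had deposited TPM of 10.21, 8.72 and 8.96 in WT against 2.23 and 3.46 in C3G KO. Scaled values were 7.66, 7.16 and 8.13 in WT and 3.61 and 3.82 in C3G KO. The C3G KO samples were close to each other after scaling, and their mean was 48.6% of the WT mean. Src fell by 0.87 on the log2 scale (standard error 0.073, adjusted p = 0.000709) after scaling, and by 1.44 (adjusted p = 5.66e-08) as deposited. Yes1 (ENSMUSG00000014932, chromosome 5, 32611171 to 32687057) had deposited TPM of 21.23, 19.60 and 17.38 in WT against 7.84 and 10.32 in C3G KO. Scaling brought the WT samples of Yes1 to 15.9, 16.1 and 15.8 and the C3G KO samples to 12.7 and 11.4. It also turned the order of the C3G KO samples, of which the first had the lower TPM as deposited. The scaled mean of Yes1 in C3G KO was 75.6% of that in WT, with a log2 change of -0.38 (standard error 0.069, adjusted p = 0.0102). Fyn (ENSMUSG00000019843, chromosome 10, 39368855 to 39565381) was the least expressed of the 3 kinases, with deposited TPM of 5.21, 4.43 and 4.43 in WT against 1.41 and 1.99 in C3G KO. After scaling it had 3.91, 3.64 and 4.02 in WT and 2.28 and 2.2 in C3G KO. The C3G KO mean of Fyn was 58.1% of the WT mean, with a log2 change of -0.58 (standard error 0.068, adjusted p = 0.00226). Since 1 TPM was added before taking logarithms, the fold changes of Fyn and other weakly expressed genes are understated.

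Csk is the kinase that phosphorylates the C-terminal tail of Src-family kinases and thereby holds them inactive. Csk (ENSMUSG00000032312, chromosome 9, 57626646 to 57653631) had deposited TPM of 9.27, 9.64 and 8.76 in WT against 3.12 and 5.51 in C3G KO. Scaled values were 6.95, 7.91 and 7.95 in WT and 5.05 and 6.09 in C3G KO. The inhibitor was thus lower together with its substrates, although the gap between WT 1 and C3G KO 2 was smaller than that between the C3G KO samples. The log2 fold change of scaled Csk was -0.39 (standard error 0.096, adjusted p = 0.0271). This call was lost without C3G KO 1 (adjusted p = 0.11), without WT 2 (0.0801), without WT 3 (0.0609) and without the filter on low TPM (0.0696), in a range from 0.000425 to 0.11 over all alternatives.

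Abl1 encodes the Abl tyrosine kinase, which phosphorylates Crk and remodels actin at the cell edge. The gene (ENSMUSG00000026842) lies on chromosome 2 at 31688376 to 31804227, 1.95 Mb from Rapgef1. Abl1 had deposited TPM of 10.90, 9.91 and 7.88 in WT against 3.67 and 5.76 in C3G KO. After scaling the values were 8.18, 8.14 and 7.15 in WT and 5.94 and 6.37 in C3G KO. WT 3 stood nearer to C3G KO 2 than to the other WT samples. Abl1 had a log2 change of -0.30 (standard error 0.079, adjusted p = 0.0336) after scaling, the smallest of those that passed. It no longer passed without WT 1 (adjusted p = 0.0795), WT 2 (0.109), C3G KO 1 (0.144) or C3G KO 2 (0.0787), nor with quantile normalization (0.0561), without the filter (0.0756) or after the length and GC correction (0.213), in a range from 0.00134 to 0.213 over all alternatives. As deposited Abl1 fell by 0.90 (adjusted p = 0.00134), a call lost without WT 1 (0.0503), WT 2 (0.0640) or C3G KO 1 (0.0604).

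ILK, PINCH and α-parvin form a complex in which ILK is the central scaffold, with the LIM-domain protein PINCH at its ankyrin repeats and parvin, which binds actin, at its pseudokinase domain. Ilk (ENSMUSG00000030890, chromosome 7, 105736592 to 105742925) had deposited TPM of 17.52, 17.27 and 16.42 in WT against 5.75 and 8.11 in C3G KO. Scaled values were 13.1, 14.2 and 14.9 in WT and 9.31 and 8.97 in C3G KO. The groups stood well apart, with a scaled log2 change of -0.57 (standard error 0.073, adjusted p = 0.00309). Parva, the α-parvin gene (ENSMUSG00000030770, chromosome 7, 112427505 to 112591692), had deposited TPM of 5.60, 4.58 and 4.95 in WT against 0.42 and 0.83 in C3G KO. After scaling these were 4.20, 3.76 and 4.49 in WT and 0.680 and 0.918 in C3G KO. Every C3G KO value of Parva was below 1 TPM, so Parva passed the filter on low expression through WT samples only. Its scaled mean in C3G KO was 19.2% of that in WT. The fall of 1.52 on the log2 scale (standard error 0.096, adjusted p = 0.000377) was the largest of the 10 genes after scaling, and as deposited Parva fell by 1.90 (adjusted p = 2.87e-17). Lims1 encodes PINCH (ENSMUSG00000019920, chromosome 10, 58323466 to 58424691) and had deposited TPM of 12.11, 11.35 and 9.99 in WT against 6.19 and 9.72 in C3G KO. Scaled, it had 9.08, 9.32 and 9.06 in WT and 10 and 10.7 in C3G KO. The C3G KO samples were thus the lowest as deposited and the highest after scaling. Neither change of Lims1 passed, with log2 fold changes of -0.46 as deposited (adjusted p = 0.0921), -0.038 with protein-coding TPM (adjusted p = 0.744) and 0.16 after median-of-ratios scaling (standard error 0.062, adjusted p = 0.0938). Relative to the median of all genes, Lims1 as deposited stood at 0.084, and as deposited it was called lower only without C3G KO 2 (adjusted p = 0.00494).

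**Figure D2:**
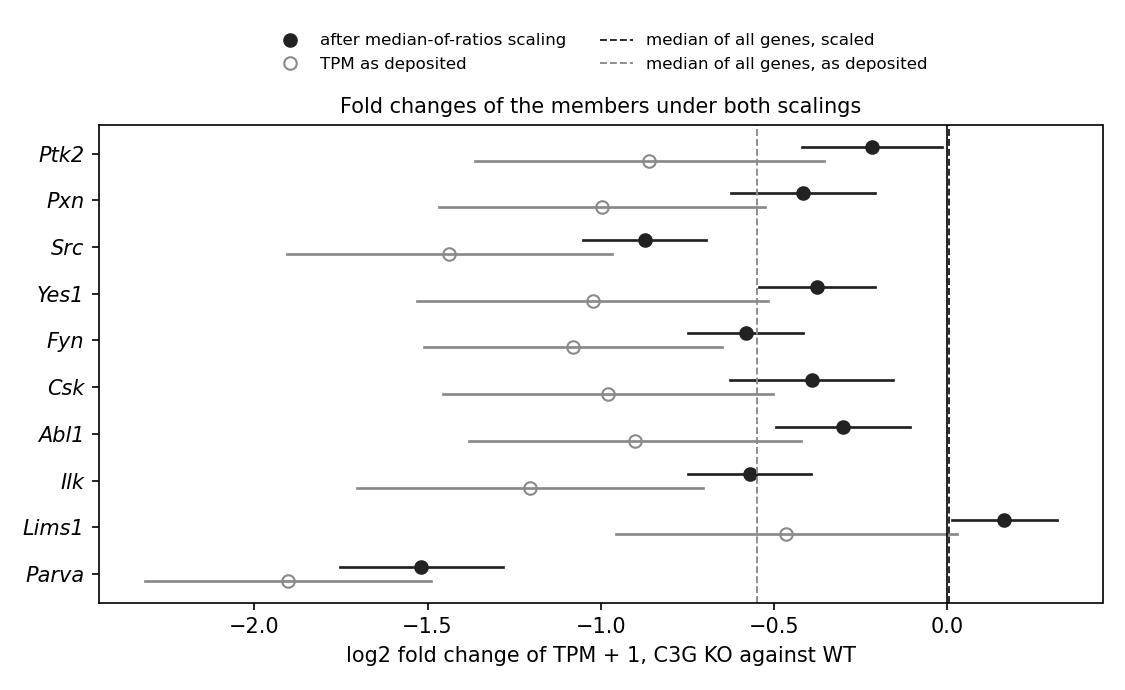
Log2 fold change of TPM + 1 in 2 C3G KO against 3 WT samples for the 10 genes, after median-of-ratios scaling (filled) and as deposited (open), with 95% confidence intervals from limma as horizontal lines. The dashed lines mark the medians of all tested genes, 0.0052 and -0.55. Parva lies farthest to the left on both scales and Lims1 farthest to the right.

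The proportions of RNA among these 3 genes, which need not be those of the proteins, do not depend on how a sample was scaled. Of the summed TPM of Ilk, Lims1 and Parva, Lims1 made up 34.4%, 34.2% and 31.9% in WT 1 to 3 and 50.1% and 52.1% in C3G KO 1 and 2. Parva made up 15.9%, 13.8% and 15.8% in WT and 3.40% and 4.45% in C3G KO. The groups did not overlap, and Lims1 thus stood higher against Parva in both C3G KO samples. The β-parvin gene Parvb, described below, was left out of these shares. Its deposited TPM, above those of Parva in every sample, were 7.60, 7.01 and 6.79 in WT and 2.38 and 4.04 in C3G KO. The shares of Parva are thus not those of all parvin RNA. These shares and those below were chosen after the values had been seen and carry no test. With 3 against 2 samples the smallest p of an exact permutation test, taken as the doubled one-sided value, is 0.2.

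The order of the levels was read on the scaled TPM. In WT the highest mean was that of Yes1 (15.9 ± 0.162, SD, n = 3), followed by Ptk2 (14.2 ± 0.564) and Ilk (14.1 ± 0.881), and the last 2 overlapped. Lims1 followed with 9.16 ± 0.142, and Abl1, Src and Csk, with means of 7.82, 7.65 and 7.61, did not differ beyond their spread. Parva (4.15 ± 0.368) and Fyn (3.85 ± 0.196) were the lowest and overlapped too. In C3G KO Ptk2 (12.1 ± 1.31, SD, n = 2) and Yes1 (12.1 ± 0.907) overlapped at the top, and Lims1 (10.4 ± 0.513) stood above Ilk (9.14 ± 0.242). Src went from the sixth to the eighth place and Parva from the ninth to the last. Summed over the 10 genes, the scaled TPM were 89.2, 92.3 and 91.7 in WT 1 to 3 and 65.6 and 68.1 in C3G KO 1 and 2.

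Most of the 10 genes have paralogues that can take on part of their role, and 7 of 16 paralogues passed the filter. Of these, 5 were lower after scaling, between 3 and 5 with a sample left out, 3 with quantile normalization, without the filter or with block and correction, and 2 with a filter of 5 TPM. Their median log2 fold change was -0.42. PYK2, encoded by Ptk2b, is the relative of FAK that responds to calcium. Scaled Ptk2b was 4.55, 4.31 and 4.36 in WT 1 to 3 and 1.62 and 1.40 in C3G KO 1 and 2, and it fell by 1.11 on the log2 scale (adjusted p = 0.000377). It lies on chromosome 14, where the median of 441 tested genes was -0.46 and 250 of them were lower, whereas the medians of the chromosomes that hold the 10 members lay between -0.033, on chromosome 7, and 0.0066, on chromosome 9. Tgfb1i1, a LIM-domain relative of paxillin, fell by 1.34 (adjusted p = 0.000188), from scaled values of 3.02, 2.89 and 2.91 in WT to 0.567 and 0.542 in C3G KO. Both C3G KO values were below 1 TPM, so Tgfb1i1 passed the filter through WT samples only. In the TPM of FAK and PYK2 together, Ptk2 made up 75.0%, 77.4% and 76.4% in WT and 87.3% and 90.3% in C3G KO. Pxn made up 68.4%, 71.7% and 67.7% of the summed TPM of Pxn and Tgfb1i1 in WT and 89.6% and 89.4% in C3G KO. Ptk2 and Pxn thus made up more of the TPM of these pairs in both C3G KO samples, although Pxn itself was lower.

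For parvin the shift went the other way. Parvb, the β-parvin gene, had scaled values of 5.70, 5.76 and 6.16 in WT 1 to 3 and 3.85 and 4.47 in C3G KO 1 and 2, and fell by 0.42 (adjusted p = 0.0112), a call lost with the replicate block and the length and GC correction together (-0.27, adjusted p = 0.0748). Of the summed TPM of Parva and Parvb, Parva made up 42.4%, 39.5% and 42.2% in WT and 15% and 17% in C3G KO. Parva was thus below Parvb in all 5 samples, by a wider margin in C3G KO, and Parvg, which was below 1 TPM in every sample, was left out of this share. Abl2, the other Abl kinase, had scaled values of 11.3, 11.3 and 9.44 in WT and 9.39 and 11.8 in C3G KO, and its groups overlapped (log2 fold change -0.014, adjusted p = 0.943). As deposited Abl2 passed with a log2 change of -0.64 (adjusted p = 0.0242). The share of Abl1 in the Abl TPM was 42.0%, 41.8% and 43.1% in WT and 38.8% and 35.0% in C3G KO.

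Lyn and Lck are Src-family kinases of blood cells. Of the 2, Lyn was above 1 TPM in WT alone and so passed the filter through WT samples only. Lyn fell by 0.49 (adjusted p = 0.0148), a call that was lost without C3G KO 2 (adjusted p = 0.0765), with quantile normalization (0.0652) and narrowly without the filter, from a scaled mean of 1.33 ± 0.201 (SD, n = 3) to 0.655 ± 0.0815 (SD, n = 2). Lck had a log2 change of -0.27 (adjusted p = 0.0481) and passed without C3G KO 1, but with any other of the 5 samples left out its adjusted p was between 0.0681 and 0.189, and it was lost in 6 other settings.

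**Figure D3:**
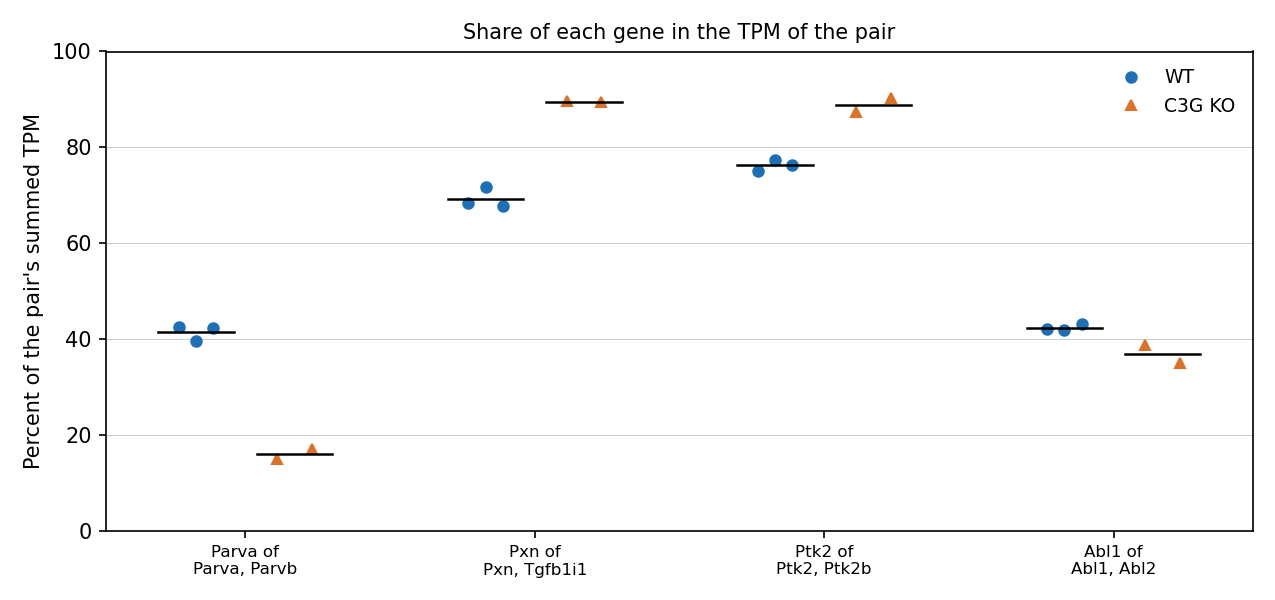
Percent of the summed TPM of each pair of genes that came from the first in each of 3 WT (circles) and 2 C3G KO samples (triangles), with group means as bars. The groups do not overlap in any column. The share of Parva goes from between 39.5% and 42.4% in WT to 15% and 17% in C3G KO.

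Transcript usage, the share of each transcript in the TPM of its gene, was tested for 31 transcripts of 8 of the 10 genes, those with a mean of at least 5 TPM. None of the 31 changed at an adjusted p under 0.05 from limma, beside 13 of 18663 transcripts of all genes, which is 0.0697%. At an unadjusted p under 0.05 there were 5 of the 31, or 16.1%, beside 1575, or 8.44%, of all transcripts. By limma's diffSplice 0 of the 31 passed too, against 1.42% of all transcripts, and 4 had an unadjusted p under 0.05, beside 2192, or 12%, of all 18318 transcripts. The 5 belonged to Src, Ilk and Pxn. Src-204 had a share of 35.2%, 21.9% and 36.2% in WT 1 to 3 and 17% and 12.4% in C3G KO 1 and 2 (adjusted p = 0.456). Src-201 had 20.3%, 39.9% and 18.9% in WT and 42.6% and 46.0% in C3G KO (adjusted p = 0.570). WT 2 lay between the other WT samples and C3G KO for both transcripts. Src-201, Src-204 and Src-205 have identical coding exons and differ mainly in the untranslated exons at their 5′ ends, which begin at 157424280, 157455671 and 157418444 on chromosome 2, so they encode the same annotated protein.

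**Figure D4:**
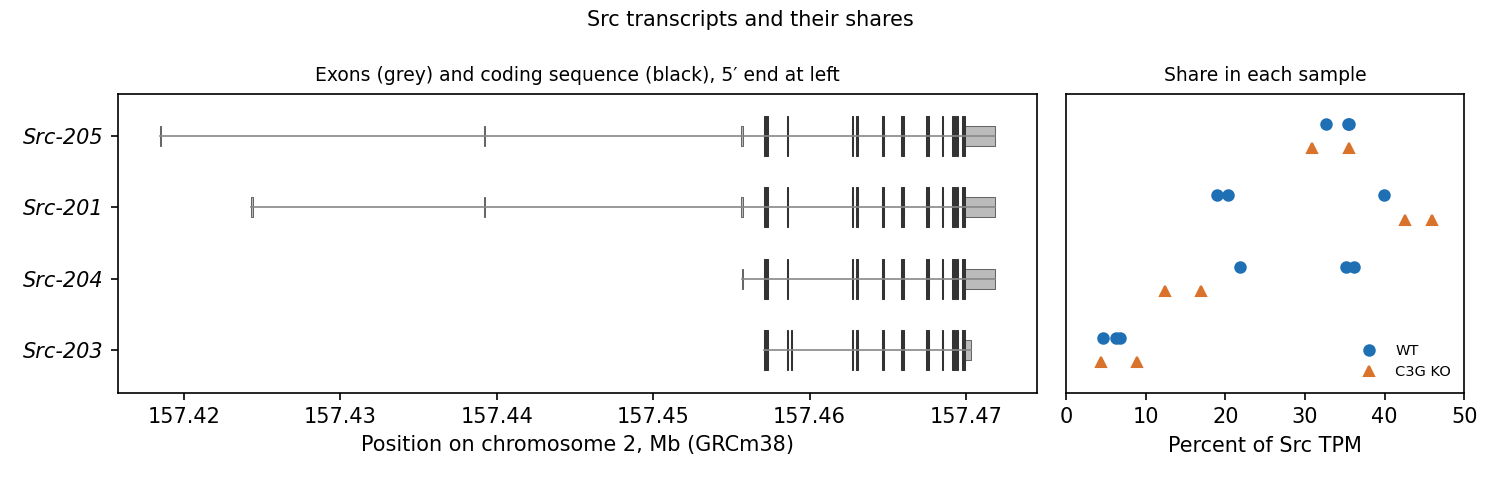
Exons of the 4 Src transcripts with a mean share of at least 5%, drawn to scale on chromosome 2 of GRCm38 (left), and their percent of the Src TPM in each of 3 WT (circles) and 2 C3G KO samples (triangles) (right). The coding exons of Src-201, Src-204 and Src-205 are the same, and the C3G KO points of Src-204, at 17% and 12.4%, lie to the left of all WT points.

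Ilk-201 made up 46.9%, 53.4% and 50.4% of the Ilk TPM in WT 1 to 3 and 57.9% and 69.3% in C3G KO 1 and 2 (adjusted p = 0.514). Ilk-204, which ends within the coding sequence as annotated, made up 12.3%, 9.38% and 8.95% in WT and 4.52% and 4.56% in C3G KO (adjusted p = 0.425). The groups did not overlap for either transcript, but neither passed over all transcripts tested. Pxn-207, a partial transcript, had 5.18%, 9.97% and 7.14% in WT and 3.33% and 2.89% in C3G KO (adjusted p = 0.544). Fyn and Parva were too weakly expressed for the test. Parva-201 made up 55.0%, 58.3% and 53.1% of the Parva TPM in WT and 95.2% and 59.0% in C3G KO, where the whole gene was below 1 TPM. The most abundant transcript made up 46.6% of the TPM of Ptk2 over the 5 samples, 51.7% of Yes1, 54.1% of Abl1, 42.2% of Csk, 86.4% of Lims1 and 63.7% of Pxn, and the groups overlapped for each of these.

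Coding exons that are used in some tissues only set the form of the kinase that is made. The transcripts were therefore also grouped by such exons, a choice made after the data had been seen. Src can take up a microexon of 18 bases in its SH3 domain, which is known from neurons, and FAK a microexon of 9 bases. Fyn has a pair of mutually exclusive exons of 165 and 156 bases, of which the longer belongs to the form first known from brain and the shorter to the form of T cells. The exons are shown in capitals, between bases of the neighbouring exons, as read from the GENCODE M21 transcripts on the strand of the gene, because they tell which form the values below belong to.
Src exon, chr2:157458843-157458860, plus strand: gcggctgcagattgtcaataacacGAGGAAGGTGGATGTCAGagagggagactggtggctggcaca
Ptk2 exon, chr15:73211987-73211995, minus strand: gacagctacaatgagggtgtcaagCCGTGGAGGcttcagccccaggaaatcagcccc
Fyn longer exon, chr10:39529437-39529601, plus strand: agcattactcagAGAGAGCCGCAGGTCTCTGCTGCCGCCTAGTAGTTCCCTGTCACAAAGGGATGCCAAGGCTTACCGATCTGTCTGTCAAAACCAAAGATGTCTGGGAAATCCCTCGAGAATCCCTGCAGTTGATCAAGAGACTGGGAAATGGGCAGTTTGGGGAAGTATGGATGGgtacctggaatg
Fyn shorter exon, chr10:39529919-39530074, plus strand: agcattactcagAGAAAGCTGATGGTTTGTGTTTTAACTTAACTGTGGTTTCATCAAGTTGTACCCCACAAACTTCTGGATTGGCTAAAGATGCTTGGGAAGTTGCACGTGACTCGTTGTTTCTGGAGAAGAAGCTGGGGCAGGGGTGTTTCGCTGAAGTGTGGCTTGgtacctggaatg

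The Src microexon was in 6.92%, 4.74% and 6.47% of the TPM of complete Src transcripts in WT 1 to 3 and in 9.42% and 4.41% in C3G KO 1 and 2. The groups overlapped, and the form without the microexon made up most of Src in all 5 samples. The Ptk2 microexon was in 20.1%, 18.7% and 15.9% of the TPM of both complete Ptk2 transcripts in WT and in 13.7% and 15.2% in C3G KO. Of the complete Fyn transcripts, 37.5%, 45.2% and 38.7% of the TPM carried the longer exon in WT and 43.4% and 45.5% in C3G KO. The shorter exon was in 33.3%, 28.7% and 35.0% in WT and 44.9% and 37.7% in C3G KO. Both forms of Fyn were thus present in all 5 samples, and the rest came from Fyn-206, which has neither exon and whose share of all Fyn TPM was 28%, 25.7% and 25.3% in WT and 11.3% and 16.1% in C3G KO. Of the Abl1 TPM in the pair of transcripts with full coding sequence, the longer first exon, whose product is myristoylated, held 81.8%, 78.7% and 78.9% in WT and 86.1% and 82.3% in C3G KO. No test was made of these shares, and how the authors' reads were split between transcripts adds an error that the file does not give.

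The members act on a wider set of adhesion genes, which were listed by role, with earlier results of these data known. Of 14 phosphatases and other regulators 12 were tested, and 3 were lower and 0 higher after scaling, beside 16.6% lower of all tested genes, with a median log2 fold change of -0.11. The 3 genes were Ppm1f, a phosphatase of the PAK kinases (-0.50, adjusted p = 0.00820), Ptpra, the receptor phosphatase that activates Src (-0.42, adjusted p = 0.00947), and Ptpn12, which dephosphorylates paxillin and p130Cas (-0.33, adjusted p = 0.0251). The call of Ptpn12 was lost without WT 1, WT 2 or C3G KO 1 (adjusted p between 0.0555 and 0.115), without the filter (0.0556), with the block (0.0655) and with the block and correction (0.0552). That of Ppm1f was lost with the block and correction (0.0875). Of 36 adaptors and substrates 34 were tested, 13 were lower and 1 was higher, and the median was -0.23. Without a sample between 8 and 12 of them were lower, and 7 with the block and the correction. The largest falls were those of Zyx, which encodes the actin regulator zyxin (-1.81, adjusted p = 0.000120), of Efs, a Src substrate of the p130Cas family (-1.37, adjusted p = 0.000144), and of Sorbs3, the gene of vinexin (-1.31, adjusted p = 0.000369). Efs and Sorbs3 lie on chromosome 14 too. Sorbs3 was above 1 TPM in WT alone and so passed the filter through WT samples only. Elmo1, a partner of Dock1 downstream of Crk, rose by 0.60 (adjusted p = 0.00325), but only by 0.095 (adjusted p = 0.680) as deposited. Of 11 integrins and integrin activators 10 were tested and all 10 were lower, with a median of -0.79. Their largest falls were those of the α3 subunit gene Itga3 (-2.58, adjusted p = 3.39e-05), the kindlin gene Fermt2 (-1.02, adjusted p = 0.00140), which is on chromosome 14, and the α5 subunit gene Itga5 (-0.85, adjusted p = 0.00180). As deposited 11, 31 and 10 genes of these 3 lists were lower and none was higher, on a scale where 56.8% of all tested genes were lower and 1.45% higher.

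Markers of ES cells were high in every sample, with Pou5f1 between 229.58 and 399.76 TPM. Of the 8 ES cell markers, all tested, 1 was higher, Dppa5a, and 1 lower, Klf4, after scaling, and the summed scaled TPM, mostly Dppa5a, was 1628, 1886 and 2052 in WT 1 to 3 and 2828 and 2506 in C3G KO 1 and 2. With a sample left out Dppa5a passed only without WT 3, and its other adjusted p were between 0.0608 and 0.123. It was also lost with quantile normalization (0.788), without the filter (0.0995), with the length and GC correction (0.0509), with the block (0.083) and with both (0.108). Klf4 was lost without WT 1 (0.0846), WT 2 (0.0909) or C3G KO 1 (0.145), without the filter (0.0888) and with the correction (0.066). Beside the counts of these marker lists, 16.6% of all tested genes were lower and 14.1% higher after scaling. Of the other lists most had few genes above the filter, and genes below it were not tested. Of 5 muscle-like markers 4 were tested and all 4 were lower, led by Tagln, their most abundant gene, and Acta2, and the summed scaled TPM was 41.3, 47.1 and 48.1 in WT and 5.00 and 5.04 in C3G KO, while the smooth muscle myosin gene Myh11 was at most 0.07 TPM in any sample as deposited. Of the 4, Cnn1 was lost without WT 2 (adjusted p = 0.0654) or C3G KO 1 (0.115), with quantile normalization (0.0649) and without the filter (0.0726), and Des was near the threshold (adjusted p = 0.0482). Of 5 trophoblast markers 2 were tested and both were lower, Krt7, the most abundant, and Cdx2, with sums of 5.28, 4.94 and 4.99 in WT and 1.05 and 0.719 in C3G KO, and Elf5 was at most 0.09 TPM. Krt7 and Cdx2, like Col1a1 and Acta2 of the other lists, were above 1 TPM in WT alone and so passed the filter through WT samples only. Of 7 fibroblast markers 2 were tested and both were lower, Thy1, the most abundant, and Col1a1, with sums of 4.37, 4.47 and 3.63 in WT and 1.64 and 1.56 in C3G KO, and Lum was listed at 0 in 4 of the 5 samples. With a sample left out the call of Thy1 was kept only without WT 3, its other adjusted p were between 0.0548 and 0.107, and it was lost without the filter (0.0664). Of 5 mesendoderm markers 2 were tested and 1 was lower, T, the most abundant, with sums of 6.92, 5.55 and 5.99 in WT and 2.77 and 3.89 in C3G KO. Of 5 neural markers 3 were tested and 1 was higher, Tubb3, the most abundant, with sums of 13.7, 13.4 and 15.2 in WT and 27.2 and 24.5 in C3G KO, and Neurog2 was listed at 0 in all samples. Of 8 markers of extraembryonic endoderm only Dab2, the most abundant, was tested, and it was higher, with sums of 4.08, 3.94 and 3.92 in WT and 7.01 and 9.44 in C3G KO, and Afp was at most 0.05 TPM. Dab2 was lost without WT 1 (0.0598), without WT 2 (0.0664) and without the filter (0.0726). As deposited, Dppa5a, Tubb3 and Dab2 did not pass (adjusted p of 0.977, 0.315 and 0.325). The deposited sums of the ES cell, neural and endoderm lists overlapped between the groups. The part of such cells in the lower levels of the members was not tested.

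The genes with the pattern most like that of Ptk2 were sought among 6874 other genes with a mean of at least 5 TPM, by the Euclidean distance of their centred log2 values over the 5 samples. The 3 nearest were Brd7, a bromodomain gene, at 0.0165, Cd24a, a surface glycoprotein gene, at 0.0319, and Arpc2, a subunit gene of the actin-nucleating Arp2/3 complex, at 0.0344. Among the members Abl1 was the nearest to Ptk2, at rank 589 with a distance of 0.198, followed by Csk at rank 702 with 0.21. The farthest of those compared was Src, at rank 5805 with 0.744, and Fyn and Parva were below the level asked for. Every other member compared was thus farther from Ptk2 than many genes outside the set.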

How the data were processed

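The authors checked reads with FastQC, aligned them with STAR to GRCm38 and deposited TPM per Ensembl transcript. The submitters' processing notes list bcl2fastq 2.20, FastQC 0.11.7, STAR 2.5.1b and RSEM 1.2.31 without their roles. Of 142647 transcripts 141524 matched GENCODE M21, and TPM were summed by symbol. Genes with at least 1 TPM in at least 2 samples were tested by limma 3.58.1, run in R 4.3.3, after taking log2 of TPM + 1 with a trend of variance on the mean, and two-sided p-values were adjusted over all genes by Benjamini-Hochberg with a threshold of 0.05. Prior degrees of freedom were 3.11 after scaling and infinite as deposited, where p-values do not use a gene's own spread. Transcript shares were tested by limma after an arcsine square root where the mean share was between 0.05 and 0.95. The fits were tested on simulated data. Members and lists were chosen with earlier results of these data known. Named genes are the members, the targeted gene, paralogues with a mean of at least 1 TPM (not all are described), up to 3 genes of each list that passed with the largest change either way, the most abundant marker of each list and the 3 genes nearest to Ptk2, and Pou5f1, Des, Parvg, Myh11, Elf5, Lum, Neurog2 and Afp were added after their values were seen. Positions are from GENCODE M21. Tables were made with pandas 2.3.3 under Python 3.11.15, and figures with matplotlib 3.10.9.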

Additional observations from a re-analysis of the deposited data

How the results depend on the processing

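After scaling 1760 genes were higher and 2083 lower. The counts were 181 and 7109 with TPM as deposited and 709 and 4217 with protein-coding TPM, and 1145 were lower with a filter of 5 TPM, which tested fewer genes and left out Fyn and Parva. The cause of the other shifts was not tested. With a sample left out, between 909 and 1579 were higher and between 1385 and 1880 lower, and between 5 and 7 members were lower. As deposited these ranges, added after seeing the data, were 94 to 130 higher, 2132 to 10226 lower and 7 to 10 members lower. Without a C3G KO sample the lone one is assumed to vary like WT. No setting called a member higher or a member's transcript changed. Lims1 changed sign as deposited (-0.46) and with protein-coding TPM (-0.038), and Abl2 went to 0.021 without WT 1, 0.020 without WT 2, 0.14 without C3G KO 1 (and -0.16 without C3G KO 2), 0.17 with the length and GC correction and 0.11 with that correction and the block. The correction left 6 members lower, without Abl1 and Pxn, and brought the rank correlation between length and fold change over all genes from -0.314 to -0.00665. With the replicate number as a block 1488 genes were higher and 1814 lower, 8 members were lower, and with the correction as well 1274, 1678 and 6. Samples of the same number share no labelled batch, and their deviations from the group mean correlated at -0.18 (number 1) and 0.18 (number 2). The correlation of WT 3 was larger, at 0.33 with C3G KO 1 and -0.33 with C3G KO 2. Deviations of 2 samples from their mean mirror each other, so the opposite signs for the C3G KO samples were fixed in advance. Src, Yes1, Fyn, Ilk and Parva passed in every setting that tested them, as deposited with a sample left out too. Of these, Yes1 came closest to the threshold of 0.05, and in its weakest setting lay just below it.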
